A study of Mus musculus with 6 samples.

Results

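The genes examined were 10 immediate early genes outside the AP-1 family: Egr1, Egr2, Egr3, Ier2, Ier3, Zfp36, Dusp1, Nr4a1, Socs3 and Myc. They were taken by symbol from the 38924 genes of the count table, and all 10 were found and passed the filter on low counts. RNA was sequenced from sorted mouse epidermal cells carrying CD49f, the integrin alpha 6 of basal keratinocytes. All 6 samples were flox/flox for Rnaseh2b, a subunit gene of RNase H2, which starts the removal of ribonucleotides from DNA. The 3 Cre-positive samples had in addition K14-Cre, in which the keratin 14 promoter drives the recombinase in keratinocytes, and the 3 Cre-negative samples lacked it. The sources used here do not say whether each sample is 1 animal, so the p-values measure the spread between these samples, which may be in part technical.

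Immediate early genes are transcribed within minutes of a stimulus, from promoters already loaded with factors such as SRF and CREB, and need no new protein synthesis. Growth factors, stress, wounding and the enzymatic dissociation of tissue all induce them. Many of their mRNAs are short-lived because their 3′ ends hold AU-rich elements, and several of their proteins act back on the pathways that induced them. EGR proteins, MYC and NR4A1 are transcription factors, ZFP36 (tristetraprolin) speeds the decay of AU-rich mRNAs, DUSP1 removes phosphate from MAP kinases, SOCS3 restrains JAK and STAT signalling, and IER2 and IER3 are small early response proteins.

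The stretches before the start sites are shown because they carry the elements through which such genes respond, for 4 members whose Cre-positive values all lay above the Cre-negative ones (Zfp36, which passed the test, and Nr4a1, Dusp1 and Ier3, which did not) and for 1 whose groups overlapped (Egr2). Sequences are from RefSeq on GRCm38.p6, 5′ to 3′ on the strand of the gene, and bases inside the gene's own counted exons are left out. The table held 6 of the 10 members, and Egr1, Egr3, Ier2 and Myc are named only. Capitals mark matches, on either strand, to the cAMP response element TGACGTCA and its overlapping core TGACG, the AP-1 site TGANTCA, the STAT site TTCNNNGAA, the EGR site GCGNGGGCG, the CArG box bound by SRF and the NF-kB site.
Zfp36, chr7:28379256-28379478, minus strand: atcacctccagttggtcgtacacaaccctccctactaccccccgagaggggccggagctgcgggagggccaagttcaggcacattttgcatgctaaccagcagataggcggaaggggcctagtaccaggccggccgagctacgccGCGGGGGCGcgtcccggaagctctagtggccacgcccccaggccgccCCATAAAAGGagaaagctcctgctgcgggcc
Nr4a1, chr15:101266596-101266845, plus strand: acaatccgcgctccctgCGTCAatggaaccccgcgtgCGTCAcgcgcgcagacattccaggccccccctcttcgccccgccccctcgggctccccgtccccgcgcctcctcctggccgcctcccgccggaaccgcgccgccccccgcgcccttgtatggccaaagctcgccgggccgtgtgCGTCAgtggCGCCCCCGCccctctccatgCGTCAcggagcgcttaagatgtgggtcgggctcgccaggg
Dusp1, chr17:26508520-26508722, minus strand: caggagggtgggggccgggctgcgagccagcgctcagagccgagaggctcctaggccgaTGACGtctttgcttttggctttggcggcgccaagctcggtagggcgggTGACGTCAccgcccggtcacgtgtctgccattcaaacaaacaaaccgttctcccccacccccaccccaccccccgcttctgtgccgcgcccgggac
Ier3, chr17:35821463-35821683, plus strand: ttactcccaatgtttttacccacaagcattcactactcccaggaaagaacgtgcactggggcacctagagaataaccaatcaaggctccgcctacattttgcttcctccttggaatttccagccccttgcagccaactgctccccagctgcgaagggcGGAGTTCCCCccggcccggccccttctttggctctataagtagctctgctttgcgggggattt
Egr2, chr10:67537619-67537868, plus strand, 1 of 5 listed starts: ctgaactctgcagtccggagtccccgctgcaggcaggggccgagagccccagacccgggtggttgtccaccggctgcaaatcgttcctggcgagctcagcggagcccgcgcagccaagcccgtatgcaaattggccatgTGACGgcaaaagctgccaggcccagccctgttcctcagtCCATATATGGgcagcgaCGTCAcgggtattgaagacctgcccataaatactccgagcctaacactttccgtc

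Over the 250 bases before each of 32536 listed starts of all genes, a CArG box occurred in 1.48%, the full cAMP response element in 1.56%, its core in 17.9%, the EGR site in 4.74%, the STAT site in 7.04%, the AP-1 site in 6.73% and the NF-kB site in 3.92%. Zfp36 held a CArG box 58 to 49 bases and an EGR site 105 to 97 bases before its start. Its single STAT match lay in the part not printed. Nr4a1 held 4 copies of the core TGACG and an EGR site, Dusp1 a full cAMP response element and 1 core apart from it, and Ier3 an NF-kB site. Egr2 held a CArG box with a core TGACG on each side, and Socs3, not printed, an EGR site and a STAT site. Matches of these letters are a description of the window and were not tested for binding.

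Library totals ran from 22948779 to 31718094 counts. Rnaseh2b had 172, 90 and 69 counts in the Cre-positive libraries and 543, 504 and 570 in the Cre-negative ones, in the direction of the labels. Cre-positive replicate 3 stood apart from the other libraries of its group, with a chi-square per degree of freedom of 69.2 and 49.4 against replicates 1 and 2, which had 14.7 between them; the Cre-negative pairs had 9.30 to 14.2. The 7 basal keratinocyte markers summed to between 16286 and 18923 CPM (counts scaled to a common library size) in all libraries. Most of that sum was Krt5 and Krt14, while Krt15 had a log2 fold change of -0.92 (SE 0.15) and Itgb4 0.50 (SE 0.10), neither past the edgeR threshold and each without overlap between the groups. Of all tested genes 14.1% were higher and 13.8% lower without overlap. The 6 suprabasal markers summed to 104155, 125088 and 140897 CPM in Cre-positive against 82963 to 104867 CPM in Cre-negative libraries. The 8 melanocyte markers summed to 682 to 778 CPM in Cre-positive against 381 to 442 CPM in Cre-negative libraries. By edgeR 6 of them rose, beside 0.406% of all tested genes. All 8 had positive fold changes, and 7 were higher without overlap between the groups, beside 14.1% of all tested genes. The 9 myeloid markers summed to 78.6 to 104 against 116 to 160 CPM, and members differed in sign: by edgeR H2-Ab1 fell (log2 fold change -2.29) and Lyz2 rose (1.33), while H2-Aa (-2.52) and Cd74 (-2.42) did not pass. The 6 T cell markers found summed to 18.8 to 29.6 against 29.0 to 33.4 CPM with a median log2 fold change of -0.95 and 0 called by edgeR. The 7 hair follicle markers summed to 1804 to 2398 against 3011 to 3362 CPM and the 6 fibroblast markers to 176 to 1368 against 196 to 811 CPM. The 5 endothelial markers summed to 1.81 to 21.3 against 2.65 to 19.3 CPM and the 6 muscle and blood markers to 30.5 to 53.3 against 33.9 to 107 CPM. DESeq2 called 3 T cell and 3 hair follicle markers lower, beside 1.86% of all tested genes. It called 7 melanocyte markers and 1 suprabasal marker higher, beside 3.6% of all tested genes. It also called 2 myeloid markers higher and 3 lower, and 1 basal marker higher and 1 lower. No marker was at 0 in every library, and the part of these cells in the results below was not tested. In bulk samples, fewer cells of a type and less RNA per cell cannot be told apart.

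Of the 10 members, 7 (Ier2, Zfp36, Nr4a1, Ier3, Egr1, Dusp1 and Myc) were higher in every Cre-positive library than in any Cre-negative one, where 14.1% of all tested genes were. The members and lists were chosen with earlier results of these data known. The shares of all tested genes, here and below, are therefore a background for description and not a test of any list. By the quasi-likelihood test of edgeR, Ier2 and Zfp36 rose past an adjusted p of 0.05 and 0 members fell, beside 0.406% of all tested genes that rose and 0.11% that fell. At an unadjusted p under 0.05 in that test 7 members were higher, beside 10.3% of all tested genes, and 0 lower, beside 8.48%. DESeq2 called 6 higher, beside 3.6%, and 0 lower, beside 1.86%, and limma-voom called 1 higher, beside 0.335%. The median log2 fold change of the 10 members was 0.63, against -0.00 for all tested genes. Socs3, Egr2 and Egr3 had fold changes near 0.

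**Figure D1:**
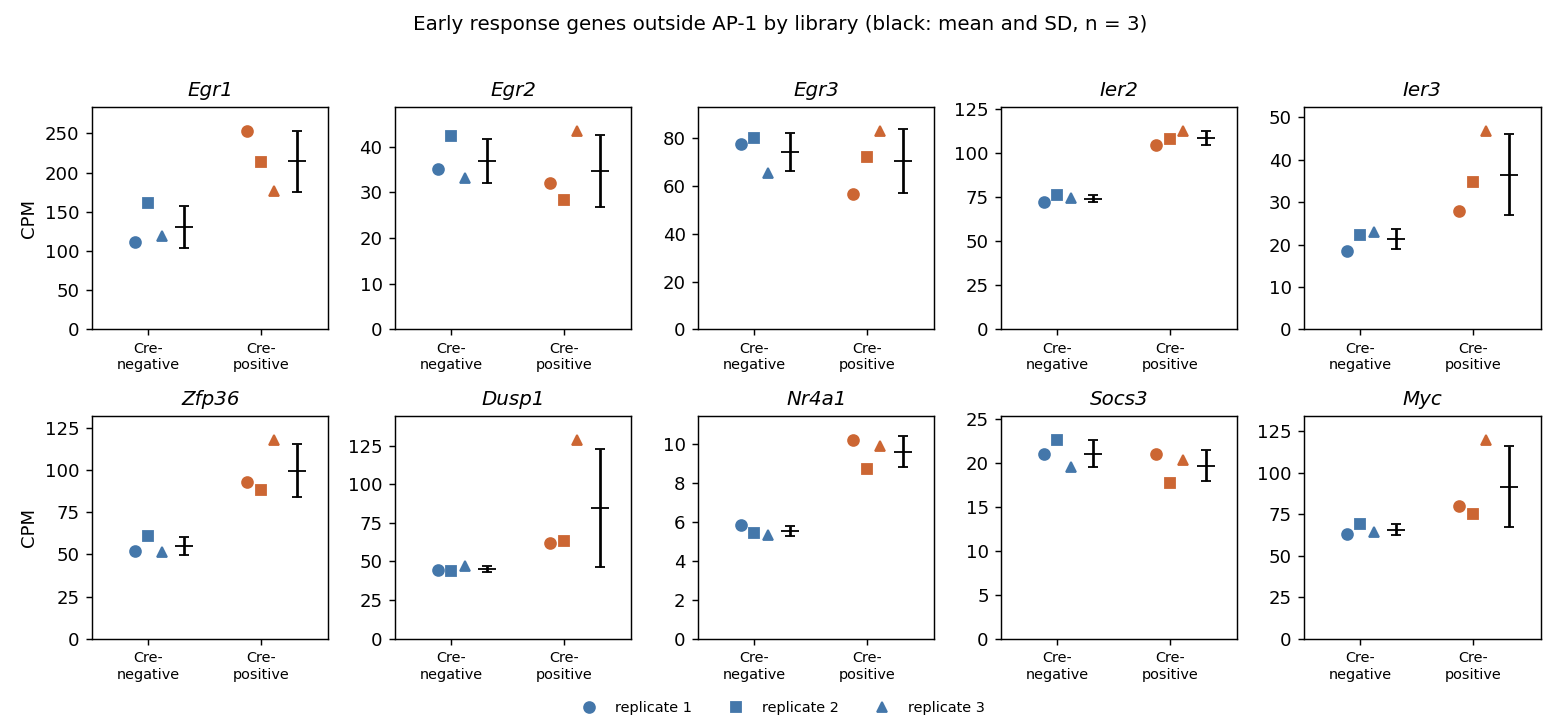
Scaled counts (CPM, y axes from 0) of the 10 early genes in each library, by group (x axes), with the replicate as the symbol shape and the mean and SD of 3 libraries in black. The groups do not overlap for Egr1, Ier2, Ier3, Zfp36, Dusp1, Nr4a1 and Myc, and they overlap for Egr2, Egr3 and Socs3.

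The EGR genes encode zinc finger transcription factors that bind GC-rich sites, and none of the 3 passed the test. Egr1 lay at 254, 214 and 176 CPM in Cre-positive replicates 1, 2 and 3 and at 111, 161 and 119 CPM in the Cre-negative libraries in the same order. The lowest Cre-positive value was just above the highest Cre-negative one, and the log2 fold change was 0.72 (SE 0.18, 95% interval 0.29 to 1.14, edgeR adjusted p = 0.132). Within the Cre-positive group Egr1 was highest in replicate 1, the library with the highest sum of fibroblast markers (1368 CPM). Cre-negative replicate 3, the next highest in that sum (811 CPM), lay between the other Cre-negative libraries in Egr1. The part of fibroblast RNA in Egr1 was not tested.

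Egr2, a factor of hair follicle and nerve sheath development, lay at 32.0, 28.4 and 43.5 CPM in the Cre-positive libraries and at 35.2, 42.3 and 33.1 CPM in the Cre-negative ones. Egr3 lay at 56.5, 71.9 and 83.1 CPM against 77.3, 80.1 and 65.3 CPM. For both genes the groups overlapped, with log2 fold changes of -0.09 (95% interval -0.50 to 0.31, edgeR adjusted p = 0.802) and -0.08 (95% interval -0.43 to 0.28, edgeR adjusted p = 0.813). Each sign turned when a single library was left out: Egr2 had 0.03 without Cre-positive replicate 2 and 0.02 without Cre-negative replicate 2, and Egr3 had 0.06 without Cre-positive replicate 1.

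Ratios of counts within a library need no scaling between libraries. The ratio of Egr1 to Egr2 counts was 7.93, 7.53 and 4.05 in the Cre-positive libraries and 3.16, 3.82 and 3.60 in the Cre-negative ones. That of Egr1 to Egr3 was 4.49, 2.97 and 2.12 against 1.44, 2.02 and 1.83. Neither ratio overlapped between the groups, and both reached p = 0.1, the smallest that a two-sided exact permutation test of 3 against 3 can give (0.15 adjusted over 3 ratios). The ratio of Egr2 to Egr3 was 0.495 ± 0.090 against 0.497 ± 0.038 (SD, n = 3 each; exact permutation p = 0.9). These ratios were chosen after the values of the genes had been seen.

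Ier2 had the tightest values of the members. It lay at 105, 108 and 113 CPM in the Cre-positive libraries and at 72.0, 76.0 and 74.7 CPM in the Cre-negative ones, a gap many times the spread within either group. The log2 fold change was 0.55 (SE 0.07, 95% interval 0.39 to 0.70, edgeR adjusted p = 0.0339), with a range of 0.52 to 0.57 on leaving out each library in turn. The call ended without any library other than Cre-positive replicate 3: the adjusted p was 0.0620 and 0.128 without Cre-positive replicates 1 and 2, and 0.221, 0.164 and 0.193 without Cre-negative replicates 1, 2 and 3. It also ended with sex as a covariate (0.0636) and with scaling by total count (0.0934).

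Ier3, whose protein is linked to survival under stress, lay at 27.9, 34.7 and 46.9 CPM in the Cre-positive libraries and at 18.5, 22.3 and 23.1 CPM in the Cre-negative ones. The groups did not overlap, but the Cre-positive values were spread widely, and the log2 fold change of 0.77 (SE 0.19, 95% interval 0.32 to 1.22) did not pass (edgeR adjusted p = 0.128).

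Zfp36 lay at 93.0, 88.4 and 118 CPM in the Cre-positive libraries and at 51.8, 60.9 and 51.6 CPM in the Cre-negative ones. Every Cre-positive value was well above every Cre-negative value, with a log2 fold change of 0.86 (SE 0.13, 95% interval 0.56 to 1.17, edgeR adjusted p = 0.0478). The call was near the threshold. The adjusted p was 0.0738 and 0.122 without Cre-positive replicates 1 and 2, 0.270, 0.179 and 0.231 without Cre-negative replicates 1, 2 and 3, 0.0689 with sex as a covariate, 0.0629 with scaling by total count and 0.0508 in limma-voom.

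Dusp1 encodes the phosphatase that switches off p38 and JNK. It lay at 61.9, 63.3 and 129 CPM in the Cre-positive libraries and at 44.3, 43.9 and 47.2 CPM in the Cre-negative ones. Cre-positive replicate 3 was far above the others of its group, yet all of that group lay above the Cre-negative libraries. The log2 fold change was 0.90 (SE 0.28, 95% interval 0.25 to 1.56, edgeR adjusted p = 0.177). Without that library it was 0.47 (SE 0.06) and passed (edgeR adjusted p = 0.0171).

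Nr4a1, an orphan nuclear receptor gene, was the least abundant member. It lay at 10.2, 8.72 and 9.93 CPM in the Cre-positive libraries and at 5.86, 5.46 and 5.33 CPM in the Cre-negative ones. The groups were far apart for their spread, with a log2 fold change of 0.80 (SE 0.12, 95% interval 0.51 to 1.08), yet it missed the threshold narrowly (edgeR adjusted p = 0.0509). It passed with DESeq2 size factors (0.0471), with a minimum mean of 1 CPM (0.0484), with no filter beyond 1 count (0.0429) and without Cre-positive replicate 3 (0.0352). Nr4a1 did not pass in limma-voom (0.0530), with sex as a covariate (0.0786), with scaling by total count (0.112) or against a 1.5-fold change. The adjusted p was 0.0933 and 0.132 without Cre-positive replicates 1 and 2, and 0.235, 0.245 and 0.231 without Cre-negative replicates 1, 2 and 3.

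Socs3 lay at 21.1, 17.7 and 20.3 CPM in the Cre-positive libraries and at 21.0, 22.6 and 19.5 CPM in the Cre-negative ones. The groups overlapped, with a log2 fold change of -0.09 (95% interval -0.33 to 0.14, edgeR adjusted p = 0.635), so that a rise of the size fitted for Zfp36 lies outside its interval. Of the receptor and kinase genes of the route that induces Socs3, none passed. The log2 fold change was 0.05 for Stat3 (SE 0.07), 0.05 for Il6st, the shared receptor chain gp130 (SE 0.13), 0.15 for Jak1 (SE 0.08), 0.09 for Jak2 (SE 0.12) and 0.10 for Osmr (SE 0.13). It was larger for the receptor genes Il6ra (0.41, SE 0.18) and Lifr (0.42, SE 0.29), both highest in Cre-positive replicate 3. Jak1 and Il6ra were higher without overlap between the groups, as were 14.1% of all tested genes.

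Myc, which drives growth and ribosome synthesis and acts in the basal layer of the epidermis, lay at 80.1, 75.4 and 120 CPM in the Cre-positive libraries and at 62.9, 69.3 and 64.5 CPM in the Cre-negative ones. Replicate 3 was again the highest. The log2 fold change was 0.48 (SE 0.17, 95% interval 0.08 to 0.89, edgeR adjusted p = 0.215), and 0.25 without Cre-positive replicate 3.

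**Figure D2:**
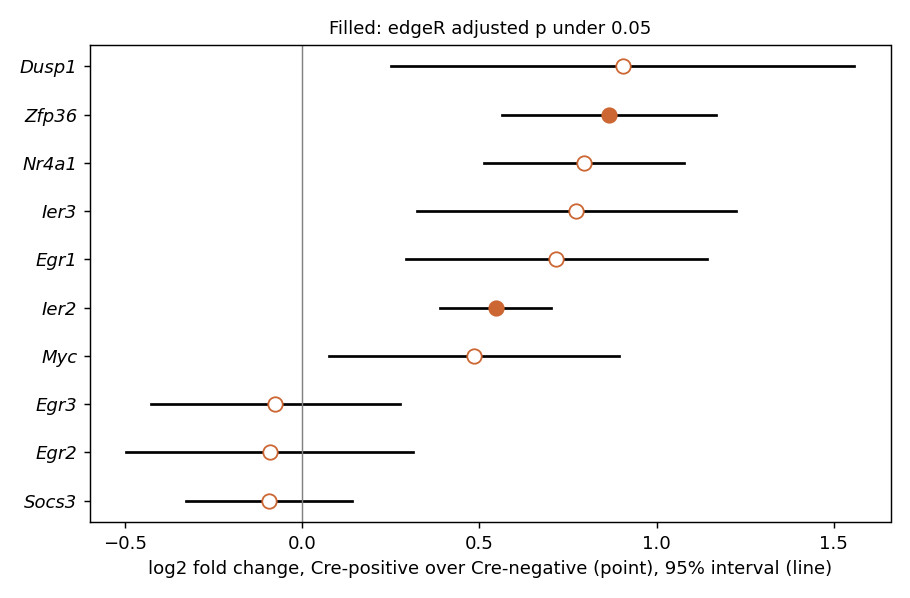
Log2 fold change of each early gene, Cre-positive over Cre-negative (x axis), with its 95% interval as a line and filled points where the edgeR adjusted p was under 0.05. Ier2 and Zfp36 are filled, and the intervals of Socs3, Egr2 and Egr3 cross 0.

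The 10 genes varied more among Cre-positive than among Cre-negative libraries. The median SD of log2 CPM over 3 libraries was 0.27 in the Cre-positive and 0.12 in the Cre-negative group, against 0.18 and 0.11 over all tested genes. The Cre-positive SD was the larger in 9 of 10 members, beside 69.5% of all tested genes. In CPM, which include the TMM scaling, 7 of the 10 were highest in replicate 3 of the Cre-positive group. The other 3 (Egr1, Nr4a1 and Socs3) were highest in replicate 1.

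The order of the Cre-positive libraries differed between genes. Egr1 and the AP-1 gene Fosb were highest in replicate 1 and lowest in replicate 3 of that group, with Fosb at 25.4, 17.4 and 9.60 CPM. Dusp1, Ier3, Myc, Zfp36, Ier2, Egr2 and Egr3 were highest in replicate 3 in CPM. These orders include the TMM scaling factor, which was 1.03, 0.975 and 0.885 in Cre-positive replicates 1, 2 and 3. Ier2 had 3408, 2435 and 2372 counts, where the tested genes totalled 31683517, 23170672 and 23790666. Per total count Ier2 was therefore lowest, not highest, in replicate 3. Among other early genes the same library was the highest for the circadian gene Per1 (76.9, 39.5 and 241 CPM in Cre-positive replicates 1, 2 and 3), the kinase gene Plk3 (113, 110 and 271 CPM) and Klf4, a factor of keratinocyte differentiation (961, 1029 and 1634 CPM). Ivl, the involucrin gene of suprabasal keratinocytes, lay at 303, 332 and 689 CPM in the same libraries, and the summed suprabasal markers were highest there too. Their part in the values of replicate 3 was not tested. Read from Xist and Y-linked genes, Cre-positive replicates 1 and 2 were male and replicate 3 female. Cre-negative replicate 2 was male and replicates 1 and 3 female. In each group Egr1 and Fosb were lower in every female library than in any male one. With sex as a covariate the log2 fold change of Egr1 was 0.57 (SE 0.099, edgeR adjusted p = 0.0813). The part of sex in the order of the libraries was not tested. Leaving out Cre-positive replicate 3 gave 5 members called higher, Egr1, Ier2, Zfp36, Dusp1 and Nr4a1. In that fit 1.81% of all tested genes were called higher. Leaving out any other library gave 0 members called.

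**Figure D3:**
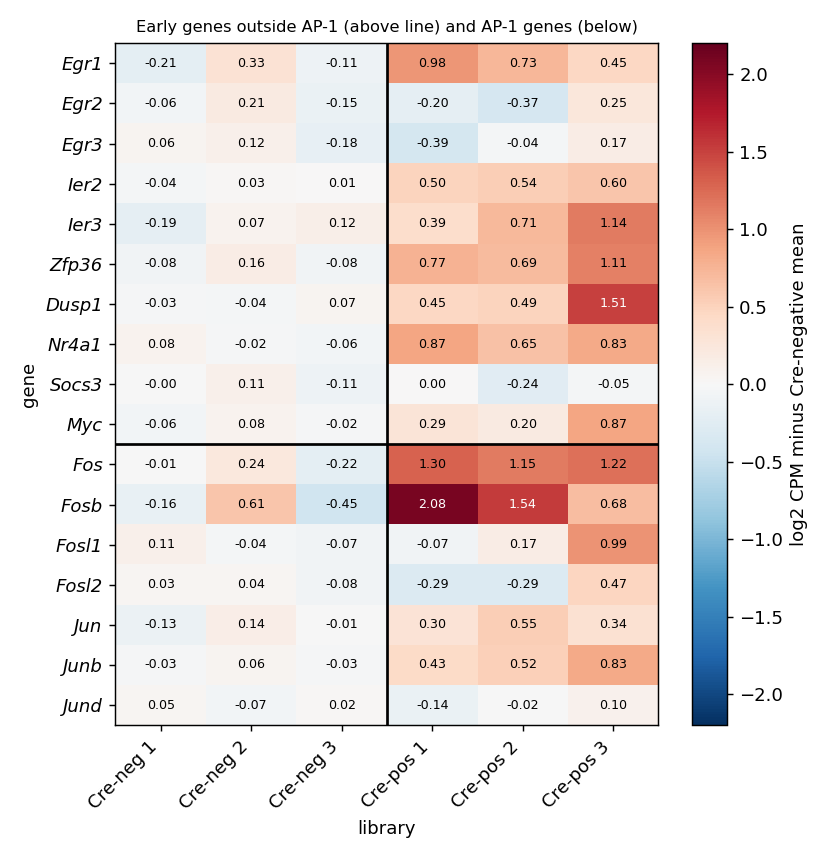
Log2 CPM of each gene minus its Cre-negative mean (colour and printed value) in each library (columns), for the early genes outside AP-1 above the line and the AP-1 genes below it. In Cre-positive replicates 1, 2 and 3 the values of Dusp1 are 0.45, 0.49 and 1.51, while Egr1 and Fosb are highest in replicate 1.

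Levels between genes were compared as CPM per kilobase of counted exon length. In the Cre-negative group Egr3 (52.4 ± 5.57) and Ier2 (48.8 ± 1.35) were the highest and overlapped. The counted exon length of Egr3 was 1416 bases, shorter than its longest 3′ untranslated region in GENCODE M21 (2645 bases). Its level thus covers only a part of that transcript, and the effect on its rank was not tested. Egr3 and Ier2 stood above the other members. They were followed by Zfp36 (30.6 ± 2.97), Egr1 (29.1 ± 6.04) and Myc (24.1 ± 1.23), of which each overlapped the next. Then came Ier3 (18.8 ± 2.15) and Dusp1 (16.7 ± 0.670), which overlapped, and below them, without overlap, Egr2 (10.8 ± 1.42), Socs3 (7.28 ± 0.538) and Nr4a1 (2.24 ± 0.111; all CPM per kilobase, SD, n = 3).

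AU-rich elements bear on these genes because ZFP36 binds them. In the longest 3′ untranslated region of each gene in GENCODE M21, searched on the sense strand, the core ATTTA was found in 9 of 10 members, with Ier2 holding none. Most tested genes with such a region held the core too, and 30.7% of them held none. The longer site TTATTTATT, which contains the core, was found in Zfp36 once and in Dusp1 at 2 places, and in 8.02% of 13698 tested genes with such a region. The first site of each, with TTATTTATT in capitals, is shown with the bases beside it.
Zfp36: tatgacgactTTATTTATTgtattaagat
Dusp1: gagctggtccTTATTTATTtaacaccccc

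Zfp36 rose while its own mRNA holds the longer site. The 1099 tested genes with TTATTTATT had a median log2 fold change of 0.06, against 0.01 for genes with ATTTA alone and -0.04 for those with neither; the regions differ in length too, with medians of 2365, 1586 and 408 bases. Of 15 cytokine and other mRNAs known to be bound by ZFP36, 10 were abundant enough to test, and 0 passed by edgeR. DESeq2 called 1 higher, beside 3.6% of all tested genes, and limma-voom 0. By edgeR 1 of the 10 was higher and 0 lower at an unadjusted p under 0.05, beside 10.3% and 8.48% of all tested genes. The chemokine gene Cxcl16 had the smallest p of these, at 41.5, 36.1 and 36.3 against 27.9, 30.5 and 27.6 CPM (a log2 difference of 0.41, SE 0.09, with an adjusted p of 0.103 by edgeR). The opposite-strand gene Zmynd15 overlaps 18.3% of the exon length of Cxcl16. Tnf, the best known target, was near 1 CPM, with a log2 fold change of 0.61 (SE 0.27, with an adjusted p of 0.280 by edgeR).

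Of the 7 AP-1 subunit genes, 1 rose, 0 fell and 6 did not pass by edgeR, beside 0.406% of all tested genes that rose and 0.11% that fell. The list median was 0.43. DESeq2 called 4 higher, beside 3.6%, and limma-voom 1, beside 0.335%. At an unadjusted p under 0.05 in edgeR 4 were higher and 0 lower, beside 10.3% and 8.48%. Without overlap between the groups 4 were higher and 0 lower, beside 14.1% and 13.8%. Fos, induced through the same SRF and CREB sites, had 227, 205 and 215 CPM against 91.4, 109 and 79.1 CPM, and it was the gene that rose (log2 fold change 1.21, SE 0.12, with an adjusted p of 0.0181 by edgeR). The call on Fos ended without Cre-positive replicate 2, without each of the 3 Cre-negative libraries, and against a 1.5-fold change. Fosb had the largest value of the list, 1.49 (SE 0.40, with an adjusted p of 0.145 by edgeR). Junb had a log2 fold change of 0.60 (SE 0.11, with an adjusted p of 0.0793 by edgeR) and Jun 0.40 (SE 0.11, with an adjusted p of 0.144 by edgeR), while Jund had -0.02. The opposite-strand gene Junos overlaps 7.28% of the exon length of Jun and Gm11175 18.9% of that of Jund.

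Of 33 other early response genes 0 passed by edgeR (DESeq2 called 4 higher, beside 3.6% of all tested genes, and limma-voom 0). In edgeR 13 were higher and 1 lower at an unadjusted p under 0.05, beside 10.3% and 8.48% of all tested genes. The groups did not overlap for 13 that were higher and 2 that were lower, where the shares over all tested genes were 14.1% and 13.8%. The list median was 0.43. Plk2, a polo-like kinase gene and also a known p53 target, had 80.7, 85.6 and 65.8 against 42.2, 53.4 and 47.3 CPM (a log2 difference of 0.70, SE 0.13, with an adjusted p of 0.0755 by edgeR). Phlda1 had 41.1, 38.9 and 48.0 against 29.3, 31.6 and 32.5 CPM (0.45, SE 0.10, with an adjusted p of 0.104 by edgeR). The 2 that were lower without overlap were Crem (-0.33, SE 0.18) and Hes1 (-0.24, SE 0.09, edgeR unadjusted p = 0.0275, adjusted p = 0.218). Other early genes at or below 0 included Atf3 (-0.24, SE 0.25), Klf10 (-0.18, SE 0.13), Trib1 (-0.00, SE 0.07) and Rhob (-0.04, SE 0.21).

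Of 22 paralogs tested among 23, 0 passed by edgeR, 2 were called lower by DESeq2 (beside 1.86% of all tested genes) and 0 by limma-voom. At an unadjusted p under 0.05 in edgeR 3 were higher and 3 lower, beside 10.3% and 8.48% of all tested genes. The list median was 0.09. The paralogs of ZFP36, which also bind AU-rich mRNAs, had log2 fold changes of 0.14 (Zfp36l1, SE 0.09) and 0.13 (Zfp36l2, SE 0.21), and their difference from Zfp36 was not tested. The opposite-strand gene Gm26669 overlaps 56.0% of the exon length of Zfp36l1. Nr4a2 and Nr4a3, the relatives of Nr4a1, lay at or below 2.04 CPM throughout, at -0.67 (SE 0.25) and 0.32 (SE 0.33). Dusp8, a JNK and p38 phosphatase gene, had 12.9, 12.9 and 10.8 against 16.4, 16.0 and 17.0 CPM (-0.43, SE 0.10, with an adjusted p of 0.118 by edgeR). Mycl, the MYC relative, had 88.5, 101 and 80.8 against 110, 126 and 116 CPM (-0.38, SE 0.10, with an adjusted p of 0.144 by edgeR). Both were called lower by DESeq2, while Myc was not called by it.

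Genes that act above and beside the members were listed too. Of 19 MAP kinase, SRF and CREB regulators 0 passed by edgeR, with 5 higher and 1 lower at an unadjusted p under 0.05 (beside 10.3% and 8.48% of all tested genes), while DESeq2 and limma-voom each called 0. The value of Srf was -0.10 (SE 0.08) and Creb1 -0.11 (SE 0.07), whereas Elk3, an SRF partner, had 0.66 (SE 0.24, with an adjusted p of 0.212 by edgeR) and Mapk14, the p38 kinase gene, 0.46 (SE 0.19, with an adjusted p of 0.247 by edgeR). Without overlap between the groups, 7 of the 19 were higher and 3 lower, beside 14.1% and 13.8% of all tested genes. Of 16 partners and inhibitors of EGR, MYC and STAT3 proteins 0 passed by edgeR, while DESeq2 and limma-voom each called 0. In edgeR 0 were higher and 1 lower at an unadjusted p under 0.05, beside the same shares of 10.3% and 8.48%. Without overlap between the groups 3 of the 16 were higher and 1 lower, beside 14.1% and 13.8%. Nab1 and Nab2, corepressors of EGR1, had -0.02 (SE 0.10) and -0.01 (SE 0.12), and on the opposite strand Gm16229 and Nemp1 cover 35.7% and 5.13% of the exon length of Nab2. The MYC antagonist Mxd3 had 10.5, 11.3 and 4.56 against 16.4, 12.7 and 16.2 CPM (-0.77, SE 0.31, with an adjusted p of 0.246 by edgeR), lowest in Cre-positive replicate 3.

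Of 18 MYC target genes of ribosome assembly and biosynthesis 0 passed by edgeR, with a median of 0.02. DESeq2 called 1 higher, beside 3.6% of all tested genes, and limma-voom 0. Under an unadjusted p of 0.05 in edgeR 2 were higher and 1 lower, beside 10.3% and 8.48% of all tested genes. Rrp12, a ribosome assembly factor, had the smallest p, at 59.7, 58.6 and 58.4 against 51.0, 43.0 and 43.0 CPM (0.37, SE 0.09, with an adjusted p of 0.117 by edgeR). Odc1, which encodes ornithine decarboxylase, had -0.36 (SE 0.22), and Ncl, the nucleolin gene, -0.04 (SE 0.10).

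Heat shock genes are induced along with early genes when tissue is dissociated. Of 12 tested, 0 passed by edgeR, 0 by DESeq2 and 0 by limma-voom, with a median of -0.07. At an unadjusted p under 0.05 in edgeR 1 was higher and 1 lower, beside 10.3% and 8.48% of all tested genes. The summed level of the 12 heat shock genes was 3119 to 3278 CPM in Cre-positive and 3198 to 3402 CPM in Cre-negative libraries, so the groups overlapped. Hspa1b and Hspb1, given below, were a small part of that sum. The part of dissociation in the values of the early genes was not tested. Hspa1b, an inducible HSP70 gene, had 91.6, 88.6 and 105 against 93.7, 73.1 and 84.3 CPM, and reads of its near-identical copy Hspa1a may be split between both. Hspb1 was the member with the largest positive value, at 107, 114 and 190 against 103, 93.9 and 85.1 CPM (0.54, SE 0.22, with an adjusted p of 0.242 by edgeR), highest in Cre-positive replicate 3.

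**Figure D4:**
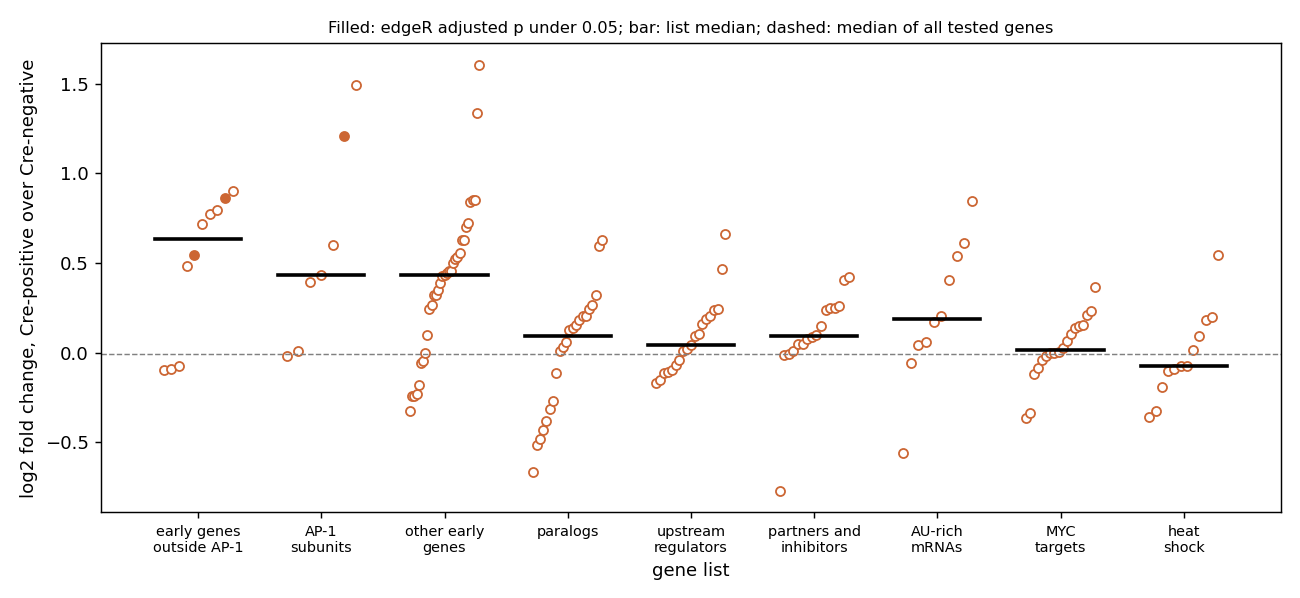
Log2 fold changes (y axis) of every tested gene of 9 lists (x axis), filled where the edgeR adjusted p was under 0.05, with a bar at each list's median and a dashed line at the median of all tested genes. The medians of the early gene lists are 0.63, 0.43 and 0.43, and those of the other lists lie between -0.07 and 0.19.

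The genes whose levels followed those of the called members most closely were sought by the root mean square difference of centred log2 CPM over the 6 libraries, among 13880 genes with a mean of at least 1 CPM. Closest to Ier2 were Uap1l1 (0.045), Galnt7 (0.048) and Tstd3 (0.049). Closest to Zfp36 were Otulinl (0.034), Tnik (0.055), which encodes a kinase of the Wnt and JNK routes, and Trim7 (0.069). Since they were chosen on these libraries, their own group differences were not read as results. None of these 6 genes was on the early gene lists.

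All members lay on mm10 as counted. Ier2 (ENSMUSG00000053560) has a single exon block on chromosome 8 from 84661331 to 84662852 on the minus strand. Zfp36 (ENSMUSG00000044786) has 2 blocks on chromosome 7 from 28376784 to 28379255 on the minus strand, and Nr4a1 (ENSMUSG00000023034) has 7 plus-strand blocks on chromosome 15 between 101266846 and 101274792. No counted gene overlapped the exons of any of the 10 members.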

How the data were processed

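Per the file headers, the deposited table gives unnormalized counts and an exon length for each gene. The submitters' processing notes name GSNAP, featureCounts and mm10; the sources used here do not state versions or the strand setting. From these counts, 15525 genes passed filterByExpr of edgeR 4.0.16 (minimum count 10, R 4.3.3), had TMM scaling and entered the two-sided quasi-likelihood test, all 6 libraries in 1 fit without covariates, with p adjusted by Benjamini-Hochberg over those genes and called under 0.05. CPM are counts over the scaled library size; a floor of 3 counts was 0.0922 to 0.143 CPM and covers counting error only. Standard errors and 95% intervals of fold changes come from the same test. Alternatives were DESeq2 1.42.0, limma-voom (limma 3.58.1), other scalings and filters, a test against a 1.5-fold change, sex as a covariate (read from Xist and Y-linked genes; both sexes occurred in each group, so each held more than 1 animal) and leaving out each library. Antisense partners are named where they cover at least 5% of the exons and have a mean of at least 10 counts. The members and lists were chosen with earlier results of these data known. Genes named are all members, per list the called genes and up to 2 with the smallest p, the nearest genes to called members, and others chosen after their values were seen.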

Additional observations from a re-analysis of the deposited data

How the results depend on the processing

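Members called higher numbered 2 by edgeR, 6 by DESeq2, 1 by limma-voom and 0 with scaling by total count, against a 1.5-fold change or with sex as a covariate, and 0 to 5 with each library left out. Genes called higher numbered 63, then 559 by DESeq2, 104 with no filter beyond 1 count, 27 by total count, 34 with sex and 2 against a 1.5-fold change (0 to 288 leave-one-out), and genes called lower 17, then 288, 38, 14, 8 and 1 (0 to 134 leave-one-out). AP-1 genes called higher went from 1 to 4 by DESeq2 and 0 against a 1.5-fold change (0 to 3 leave-one-out); other early genes from 0 to 4 by DESeq2 and 1 with no filter (0 to 3 leave-one-out, with 0 to 1 lower); paralogs called lower from 0 to 2, AU-rich mRNAs from 0 to 1 (0 to 1 leave-one-out) and MYC targets from 0 to 1 by DESeq2. DESeq2 log2 fold changes newly past the threshold were 0.72 for Egr1, 0.78 for Ier3, 0.92 for Dusp1 and 0.81 for Nr4a1; Nr4a1 also passed with DESeq2 size factors (0.80), with no filter (0.79) and with a minimum mean of 1 CPM (0.80). Ier2 and Zfp36 no longer passed by total count (0.43 and 0.74), with sex (0.55 and 0.88) and against a 1.5-fold change (0.55 and 0.86), and Zfp36 in limma-voom (0.86). Scaling by total count lowered the median of all genes by 0.11; no member changed sign under any scaling. Leave-one-out ranges were 0.58 to 0.90 for Egr1, -0.29 to 0.031 for Egr2 (0.031 without Cre-positive replicate 2 and 0.019 without Cre-negative replicate 2), -0.21 to 0.063 for Egr3 (the latter without Cre-positive replicate 1), 0.52 to 0.57 for Ier2, 0.55 to 0.94 for Ier3, 0.73 to 0.95 for Zfp36, 0.47 to 1.09 for Dusp1, 0.75 to 0.86 for Nr4a1, -0.15 to -0.03 for Socs3 and 0.25 to 0.61 for Myc. The cause of these changes was not tested. Each fit with a library left out also had fewer samples. No paired analysis was possible because the labels give no replicate numbers shared between the groups.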
